A study of Mus musculus with 24 samples.

Results

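The genes described here are the histone genes of the Hist1, Hist2, Hist3 and Hist4 clusters as they were measured in poly(A)-selected RNA of mouse duodenum, ileum and colon. They were chosen by symbol and by their measured level. Of 61 symbols starting with Hist1 to Hist4, the 58 above 0 FPKM in at least 3 libraries of at least 1 region were kept, out of 21441 genes in each table. FPKM is the number of fragments of a gene, scaled to its length and to the number of mapped fragments of the library. The level therefore chose the members, and levels are given below as a description. By type, 6 of the 58 encode the linker histone H1, 14 encode H2A, 16 encode H2B, 10 encode H3 and 12 encode H4. The rule was met by 56 genes in the duodenum, 54 in the ileum and 56 in the colon. Just outside it, Hist1h3h was above 0 in 2 duodenum, 1 ileum and 2 colon libraries, Hist1h2ba, a testis H2B, in 2 duodenum libraries, and Hist1h2aa, a testis H2A, in 2 ileum libraries. Just inside it, the testis linker histone Hist1h1t averaged 0.0815 FPKM over 23 libraries.

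These genes are the replication-dependent histone genes. Their messengers supply the histones that package new DNA in S phase, and in most cell types they end in a short stem-loop in place of a poly(A) tail. The stem-loop is bound by SLBP, and the messenger is cut a few bases behind it. Some of the genes also give polyadenylated transcripts, mostly in cells that have left the cycle. A library made by poly(A) selection is thus not designed to capture the common form of these messengers, and the fraction of each gene's RNA that was captured is not known from these files.

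The mice were C57BL6J wild-type animals of both sexes, with ages of 10 to 14 in a unit that the labels do not state. The treated group, 3xD, received 3 injections of 1,25D3, the hormonal form of vitamin D, at 1 ng per g of body weight, given 48, 24 and 6 h before the end. The other group, minusD, was vitamin D-deficient. Whether the treated mice had also been made deficient, and whether the deficient mice were injected with vehicle, is not stated in the labels. Each group had 4 libraries per region, except that 3 deficient ileum libraries were used. The columns of the tables carry either a serial number or a 4-digit number, and libraries are named by them here. In each region 1 treated library (treated 1) and deficient 1, 2 and 3 are serial, and treated 3xD5711, 3xD5720 and 3xD5734 are 4-digit. Deficient minusD5718, in the duodenum and colon, is the remaining 4-digit library. The column type therefore nearly coincides with treatment. The stated ages differ between replicates of each group, so these did not all come from 1 mouse. The labels do not say that every replicate was a separate mouse, so p-values measure the spread between these libraries.

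Most members carry the stem-loop in their sequence. The pattern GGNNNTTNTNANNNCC with all 6 stem pairs complementary around a 4-base loop was searched on the sense strand in the 300 bases after the stop codon. It was present in 55 of 58 members and in 6 of 21738 other coding genes (0.0276%). Of all 21805 coding genes searched, 0.316% held it. H2afx, a variant histone gene made both in and outside S phase, was among the 6. Hist1h2an, Hist2h2bb and Hist2h2be had no match in this window. The sequences below are those of the members that the results turn on, from the NCBIM37 assembly, with the 16 bases of the stem-loop in capitals and 5 bases on each side.
Hist1h1c (H1, chr13:23831376-23831401, plus strand): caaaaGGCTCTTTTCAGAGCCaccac
Hist1h2ac (H2A, chr13:23775341-23775366, minus strand): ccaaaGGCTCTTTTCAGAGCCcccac
Hist2h2aa2 (H2A, chr3:96043702-96043727, minus strand): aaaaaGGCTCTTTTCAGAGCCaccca
Hist3h2a (H2A, chr11:58768669-58768694, plus strand): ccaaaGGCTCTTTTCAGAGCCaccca
Hist1h2bc (H2B, chr13:23776511-23776536, plus strand): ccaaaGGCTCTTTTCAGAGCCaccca
Hist1h2bh (H2B, chr13:23634792-23634817, minus strand): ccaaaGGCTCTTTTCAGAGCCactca
Hist1h3c (H3, chr13:23836911-23836936, minus strand): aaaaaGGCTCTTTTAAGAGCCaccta
Hist1h4h (H4, chr13:23623322-23623347, plus strand): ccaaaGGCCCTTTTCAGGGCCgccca
Hist1h4i (H4, chr13:22132830-22132855, minus strand): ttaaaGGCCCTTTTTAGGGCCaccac

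The form of Hist1h1c was shared by 33 members: 5 of the H1, 11 of the H2A, 11 of the H2B and 6 of the H3 genes, and by none of the H4 genes. All 12 H4 genes had another stem, and 7 of them had the form of Hist1h4h. These genes have 1 annotated exon each, except Hist1h2bc with 2, and the printed stem-loops lie after the stop codon. The stem-loop lay between exons of the annotated gene, and so outside the spliced transcript, for Hist1h2bc and Hist1h2br. Of the 58 genes, 47 lie on chromosome 13, 8 on chromosome 3, 2 on chromosome 11 and 1 on chromosome 6.

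The annotated ends of the genes fell into 2 kinds. For 35 members the annotated model (GENCODE vM1 on NCBIM37) ended within 100 bases of the stem-loop, or before it, and for 20 it ran over 100 genomic bases past it. The poly(A) signal AATAAA was searched on the sense strand in the last 50 bases of the longest transcript. It was present in 10 of the 20 long models (50%) and in 54.5% of all coding genes. It was in 0 of the 35 short models, which by definition end near or before the stem-loop. Their last 50 bases lie largely in coding sequence, the stem-loop or the bases right behind it. That 0 is thus largely fixed by the definition and is no contrast with the other shares. The same letters on the other strand were in 6.66% of all coding genes. Of the 3 members without a stem-loop match, 1 had the signal. Some short models stop before the stem-loop, such as Hist1h4k, with 309 coding bases in a model of 312. Its last 50 bases are coding sequence and the stop codon, so an absent signal there says little about polyadenylation. The signal was in the annotated models of the highest 2 members, Hist1h2bc and Hist1h1c. The median of the members' mean levels was 1.33 FPKM for the 20 long models and 0.557 FPKM for the 35 short ones. Long and short refer to the annotated models, and for several long ones the length behind the FPKM was shorter, as given below. Both sets spread widely, from 0.0815 to 248 FPKM and from 0.103 to 44.2 FPKM.

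**Figure D1:**
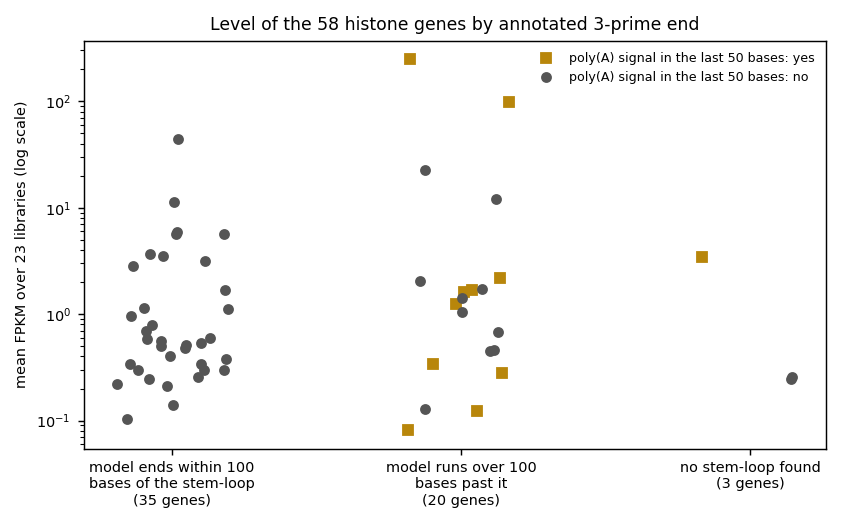
Mean FPKM over 23 libraries (log scale) of the 58 histone genes, 1 point per gene, by where the annotated model ends relative to the stem-loop; squares mark models with a poly(A) signal in their last 50 bases. The squares include the highest 2 genes, at 248 and 98.5 FPKM. None lies among the 35 short models, which follows largely from how these were defined. For several long models the length behind the FPKM was shorter than the annotated one.

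The length behind the FPKM values mattered for reading these levels. The values move in steps of whole reads, and the reads were recovered for 57 of the 58 members (not for Hist1h2be). The size of 1 read gave the length by which each gene had been divided. That length was inferred from the steps of 4816 genes with 1 annotated transcript, of which 48.4% lay close to the fitted line. For the members it ranged from 358 to 2667 bases, with a median of 483. Hist1h1c came out at 725 bases against an annotated 1560, Hist1h2ac at 487 against 2482, and Hist3h2a at 508 against 1990. For Hist1h1d it was 776 against 3821, for Hist2h4 384 against 1608 and for Hist1h3d 504 against 1249. Hist2h2be came out at 2667 bases against an annotated 2618, and Hist1h2bc at 728 against 736. For members with a long annotated model but a short divisor, reads from the long 3′ part may not be in the value.

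Members also resemble each other in sequence. The coding sequence was at least 95% identical to that of another histone gene of equal length for 39 members, at least 99% for 11 and 100% for 4 (Hist1h2ap, Hist1h2br, Hist1h4n and Hist2h2aa2). Reads of such copies may be divided between them or given to 1 of them. The values of those genes are uncertain in that sense. Hist2h2aa1, the copy of Hist2h2aa2, is not among the 61 Hist symbols with values.

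Depth was lower in the 4-digit libraries. The reads recovered per library ranged from 14329495 to 18733349 for the 4-digit and from 20925638 to 35562349 for the serial columns. Members took 1501 to 7152 of these reads in duodenum, 1578 to 11724 in ileum and 3422 to 10451 in colon libraries. At this depth the median member had a median of 4 reads per duodenum library, 4 per ileum library and 5.5 per colon library. Of the 57 members with reads, 48, 45 and 43 stayed under a median of 20. The region labels went with their markers: the summed duodenal enterocyte markers were 20288 to 32583 FPKM in the duodenum, the 2 ileal markers measured 2383 to 10960 in the ileum, and the colon markers 2371 to 8900 in the colon. In the colon, treated 3xD5720 held 24581 FPKM of exocrine pancreas markers, against at most 4108 in the others. In the duodenum these markers summed to 630 to 27141 FPKM in treated and 5946 to 41532 in deficient libraries. Stomach markers there summed to 138 to 9111 FPKM in treated and 39.5 to 12329 in deficient libraries. The part of such tissue in the histone values was not tested. Testis markers were at or near 0, at most 0.412 FPKM summed. In bulk tissue, fewer cells that express a gene and less RNA per cell cannot be told apart.

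A few genes made up most of the histone signal. Hist1h2bc, an H2B gene, held 50.4% (median over libraries) of the members' summed FPKM in the duodenum, 51.6% in the ileum and 49.6% in the colon. Together with Hist1h1c, the gene of linker histone H1.2, it held 60.6%, 71.3% and 72.3%. In the duodenum Hist1h2ap held a median of 16.5% (0 to 39.4%), more than Hist1h1c at 10.9%. In the ileum and colon Hist1h2ap held 6.17% and 2.11%, against 18.4% and 23.4% for Hist1h1c. A mean of at least 5 FPKM was reached by 7 members in the duodenum, 8 in the ileum and 10 in the colon. Of the 58 members, 30 stayed under 1 FPKM on average in every region. The tables of the 3 regions were normalized separately, so levels are not tested across them.

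**Figure D2:**
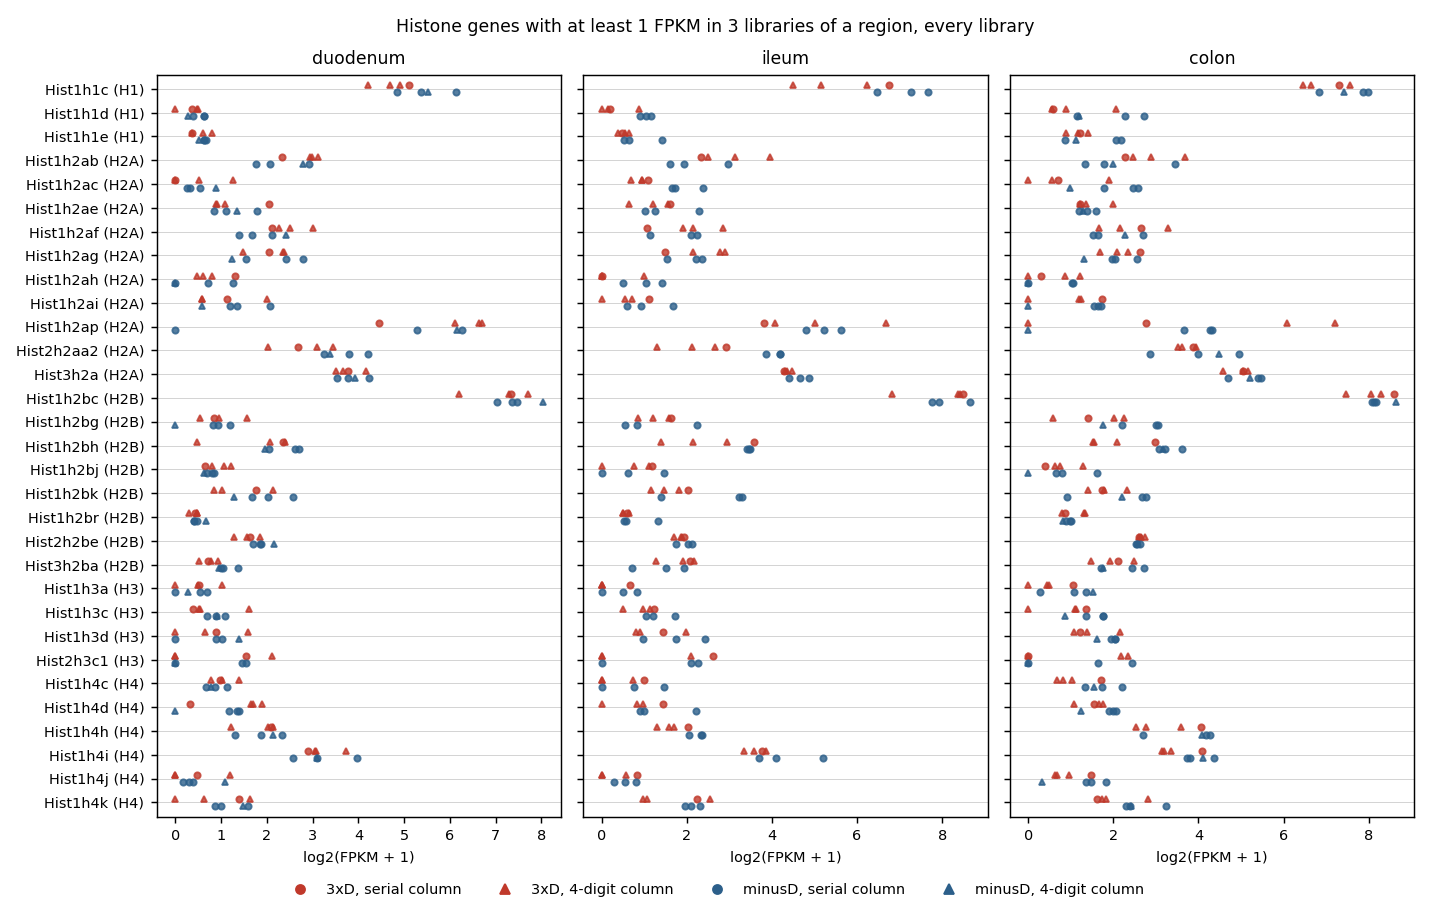
Level of each histone gene with at least 1 FPKM in 3 libraries of a region, as log2(FPKM + 1), 1 point per library, red for 3xD and blue for minusD, circles for serial and triangles for 4-digit columns. Hist1h2bc and Hist1h1c are the highest in most ileum and colon libraries, and Hist1h2ap is above Hist1h1c in several duodenum libraries. Hist1h2ap and Hist2h3c1 are at 0 in some libraries and well above 0 in others.

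Treatment was compared in each region with limma on log2(FPKM + 1) over all genes that reached 1 FPKM in at least 3 libraries. This filter passed 20 of the 58 members in the duodenum, 22 in the ileum and 30 in the colon. No member passed an adjusted p of 0.05 in any region. Among all genes the share called was 0.0256% in the duodenum (3 of 11734), 0% in the ileum (0 of 12149) and 0% in the colon (0 of 12746). By limma with an unadjusted p under 0.05, 2 of 20 members were lower and 0 higher in treated duodenum, 4 of 22 lower and 0 higher in treated ileum, and 5 of 30 lower and 0 higher in treated colon. Over all genes tested, 5.37% were lower and 4.03% higher in treated duodenum. For treated ileum the shares were 2.74% and 3.09%, and for treated colon 2.93% and 2.92%. The voom fit on recovered reads also called 0 members in each region.

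The fitted differences leaned to lower values in the ileum and colon. Of the members tested, 12 of 20 were below 0 in the duodenum (all genes 48.1%), 16 of 22 in the ileum (48.3%) and 21 of 30 in the colon (52.7%). The median log2 difference of treated minus deficient was -0.05 in the duodenum, where that of all genes tested was 0.01. In the ileum it was -0.31 against 0.01, and in the colon -0.32 against -0.01. Since the filter can admit a member through the group where it is high, these counts are descriptions. Over all 58 members with no filter the medians were -0.06, -0.18 and -0.17.

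Column type and single libraries moved these figures. Within the serial columns (1 treated against 3 deficient) the median of the same members was -0.01 in the duodenum, -0.15 in the ileum and -0.18 in the colon. Within the 4-digit columns (3 treated against 1 deficient) it was -0.05 in both the duodenum and the colon. With column type as a term in the limma fit, the members lower at an unadjusted p under 0.05 went from 2 to 0 in the duodenum, where 3.69% of all genes were lower. In the colon 1 of 30 was lower and 1 higher, with 10.1% of all genes lower. In the ileum all deficient libraries are serial, so this fit sets treated 1 alone against deficient 1, 2 and 3 and takes its spread from the other libraries. It gave 2 of 22 lower members there, with 0.337% of all genes lower. Without treated 3xD5720 the median was 0.03 in the duodenum, -0.17 in the ileum and -0.31 in the colon. The colon's 5 lower members then became 1, with 3.13% of all genes lower. Without deficient 3 the median was 0.04 in the duodenum, -0.18 in the ileum and -0.40 in the colon. The lower members were then 0, 3 and 6, and the higher ones 1, 2 and 1. Of all genes, 10.1%, 3.92% and 2.67% were lower in these fits. In the colon 2 lower members were left without treated 3xD5711 (2.14% of all genes lower) and 3 without deficient 2 (1.57%). In the ileum the 4 lower members became 6 without treated 1, 7 without deficient 1 and 2 without deficient 2. The shares of all genes lower were then 4.77%, 2.83% and 0.732%. In the duodenum the 2 lower members became 1 without treated 1, treated 3xD5711, treated 3xD5720, deficient 2 or deficient minusD5718. Of all genes, 6.07%, 5.01%, 3.73%, 3.12% and 4.34% were lower in these fits, in that order. The members higher were 2 without treated 1 and 1 without deficient minusD5718. Treated 3xD5720 had the lowest median deviation of the members in every region, -0.33, -0.48 and -0.48 on the log2 scale. Its S-phase and proliferation genes deviated by 0.13, 0.34 and 0.26. Deficient 3 had the highest median deviation of the members in the duodenum (0.48) and the ileum (0.58), and was also the highest there in immune cell markers. The 5 B and plasma cell markers, all measured, summed to 1409 FPKM in it in the duodenum and 935 in the ileum, with the next library at 656 and 540. The 9 T and NK cell markers, all measured, summed to 96.2 and 73.5 FPKM, with the next library at 62.4 and 56.4. By group, the B and plasma cell sums ran from 48.3 to 656 FPKM in treated and 126 to 1409 in deficient duodenum, 102 to 540 and 212 to 935 in the ileum, and 44.8 to 515 and 127 to 296 in the colon. The T and NK cell sums ran from 21.2 to 62.4 FPKM in treated and 49.8 to 96.2 in deficient duodenum, 16.6 to 56.4 and 25.7 to 73.5 in the ileum, and 11.4 to 31 and 17.3 to 26.5 in the colon. No defining marker of either list was at 0 in every library of a region. The part of column type, depth, immune cells or single libraries in the differences was not tested further.

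**Figure D3:**
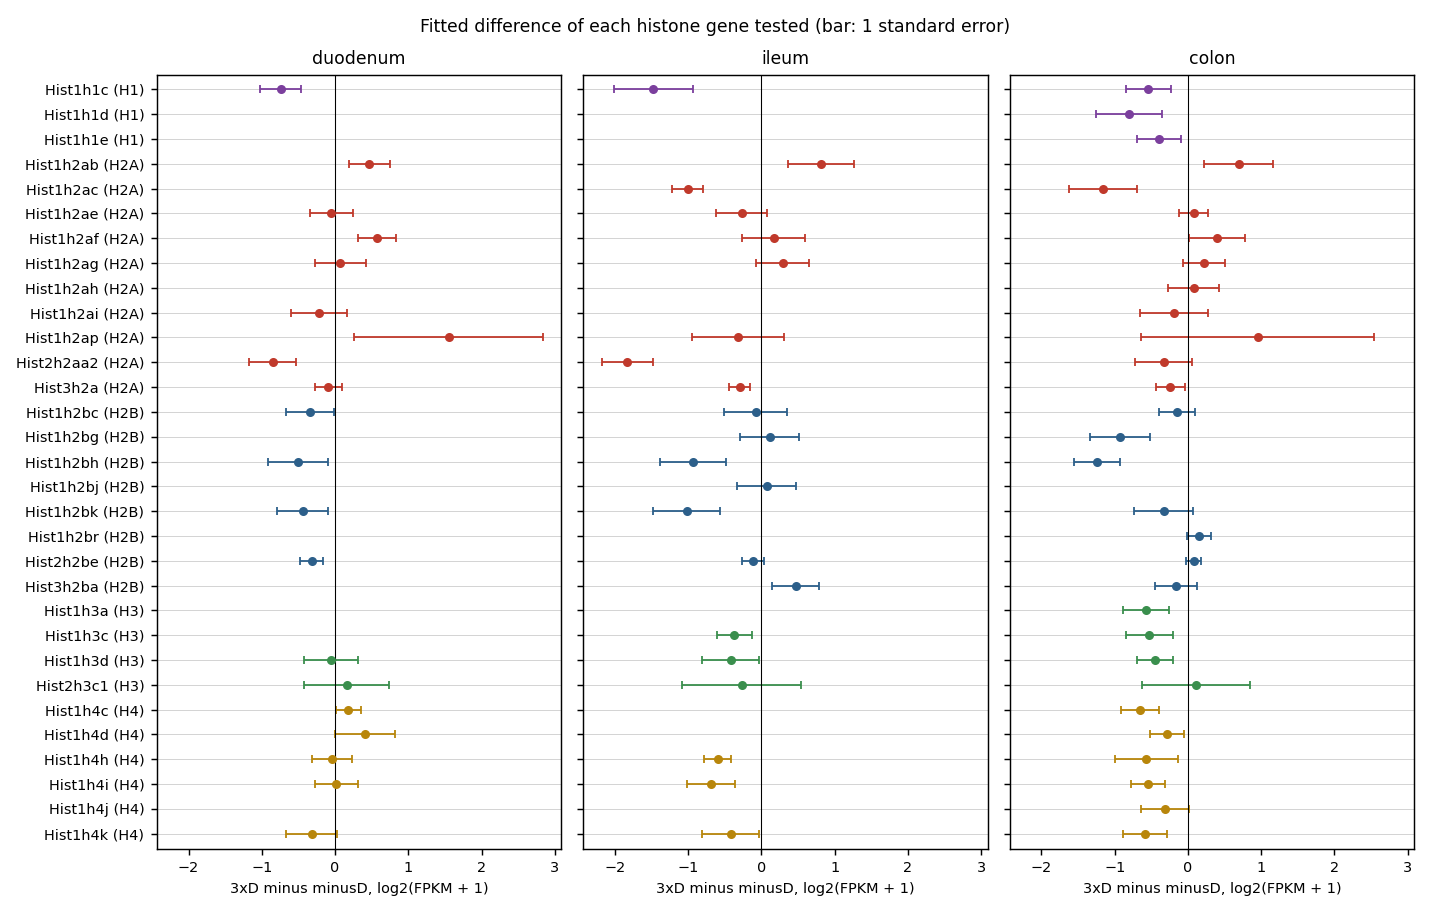
Fitted difference of treated (3xD) minus deficient (minusD) on log2(FPKM + 1) with 1 standard error, for each histone gene tested in a region, coloured by histone type. In the ileum 16 of 22 and in the colon 21 of 30 points lie below 0, and none passed the adjusted threshold.

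Among the genes of the linker histone H1, Hist1h1c was the highest. In the duodenum it stood at 33.4, 24.8, 17.5 and 28.9 FPKM in treated 1, 3xD5711, 3xD5720 and 3xD5734, and at 27.8, 40.4, 69.2 and 44.8 in deficient 1, 2, 3 and minusD5718. The groups overlapped through deficient 1, with means of 26.1 ± 6.76 and 45.5 ± 17.3 FPKM (SD, n = 4 each). The log2 difference was -0.74 ± 0.28 (SE, limma adjusted p = 0.499). In the ileum it was 107, 34.8, 21.4 and 73.9 FPKM in the treated libraries, in the same order, and 87.9, 204 and 153 in deficient 1, 2 and 3. Only the serial treated library reached into the deficient range. The difference was -1.48 ± 0.54 (limma adjusted p = 0.706), but -0.39 within the serial columns. In the colon the treated libraries held 157, 87.1, 99.6 and 186 FPKM and the deficient ones 254, 231, 114 and 170, a difference of -0.54 ± 0.31 (limma adjusted p = 0.885). Hist1h1c was thus below 0 in each region, and past the adjusted threshold in none. The other 5 H1 genes summed to 1.09 ± 0.147 FPKM in treated and 1.43 ± 0.227 FPKM in deficient duodenum, and to 3.08 ± 1.31 and 5.89 ± 3.48 FPKM in the colon (SD, n = 4 each), with overlapping groups. Ileum sums did not overlap, at 0.699 to 1.65 FPKM in treated and 1.85 to 3.47 in deficient libraries, with means of 1.15 ± 0.397 (SD, n = 4) and 2.45 ± 0.883 (SD, n = 3). Hist1h1d, 1 of these 5, was under the filter there and was named after its values were seen. It was also apart, at 0.27 ± 0.377 and 1.05 ± 0.189 FPKM, from 3, 1, 0 and 9 and from 12, 25 and 21 reads. It is part of the ileum sum, so the 2 separations are not independent. The share of separate groups among all unfiltered genes was not counted. In the colon Hist1h1d and Hist1h1e passed the filter, at -0.81 and -0.39.

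Of the genes of the core histone H2A, 8 of 14 were tested in the duodenum, 8 in the ileum and 10 in the colon, with medians of 0.01, -0.28 and 0.08 on the log2 scale. Hist2h2aa2 had the smallest p in the ileum. It stood at 6.53, 1.46, 3.34 and 5.35 FPKM in the treated and at 17.1, 17.1 and 13.6 in the deficient libraries. These values came from 89, 10, 20 and 40 reads and from 165, 278 and 159 reads. Every treated library was below every deficient one, with means of 4.17 ± 2.24 (SD, n = 4) and 16 ± 2.05 FPKM (SD, n = 3). The difference was -1.83 ± 0.35 (limma adjusted p = 0.706), and -1.16 within the serial columns. In the duodenum it was 5.39, 3.05, 7.56 and 9.94 FPKM in the treated and 8.49, 12.8, 17.6 and 9.36 in the deficient libraries, so the groups overlapped. The difference there was -0.85 ± 0.32 (limma adjusted p = 0.5). In the colon it was 13.7, 10.5, 11.3 and 14.5 against 30.1, 15, 6.22 and 21.4 FPKM, with -0.33 ± 0.39 (limma adjusted p = 0.930). Its deficient colon libraries spread more than those of the other regions, from 6.22 to 30.1 FPKM.

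Hist1h2ac had lower means in treated ileum and colon, at low counts. In the ileum the treated libraries held 11, 3, 4 and 5 reads (1.11, 0.603, 0.921 and 0.922 FPKM) and the deficient ones 16, 25 and 36 reads (2.29, 2.12 and 4.24 FPKM). The groups did not overlap, and the difference was -1.01 ± 0.21 (limma adjusted p = 0.706). In the colon the treated libraries stood at 0.632, 0, 0.464 and 2.74 FPKM and the deficient ones at 5.02, 4.49, 2.42 and 0.988. There the 4-digit deficient library lay among the treated ones, and the difference was -1.16 ± 0.46 (limma adjusted p = 0.846), with -1.57 in serial columns alone and -0.17 in 4-digit columns alone. A count of 0 in colon treated 3xD5711 allows up to 0.641 FPKM (3 reads, counting error only). In the duodenum it was under the filter, at 0 to 1.39 FPKM.

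Some other H2A genes went the other way. Hist1h2ab stood at 4.06 to 7.73 FPKM in treated and 2.38 to 6.54 in deficient duodenum, and its differences were 0.47, 0.81 and 0.69 in the duodenum, ileum and colon. None of the 3 had an adjusted p under 0.584, and within the serial columns they were 0.09, 0.15 and 0.08. Within the 4-digit columns they were 0.24 in the duodenum and 1.02 in the colon. Hist1h2af in the duodenum was at 3.34, 3.83, 4.65 and 7.02 FPKM in the treated and 1.61, 2.19, 3.33 and 4.38 in the deficient libraries, a difference of 0.57 ± 0.26 (limma adjusted p = 0.528). Hist3h2a, in a small cluster on chromosome 11 next to Hist3h2ba, had overlapping groups in each region, and its differences were below 0. It was at 10.3 to 17 FPKM in treated and 10.5 to 17.9 in deficient duodenum, 18.6 to 21 and 20.3 to 28.3 in the ileum, and 22.9 to 34.8 and 24.8 to 43.1 in the colon. Its differences were -0.09, -0.30 and -0.24.

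Hist1h2ap varied widely between libraries of 1 group. It was 20.8, 68.3, 98.8 and 103 FPKM in treated duodenum and 0, 37.9, 75.4 and 70 in deficient duodenum. In the colon it was 5.76, 66.4, 148 and 0 against 18.9, 11.7, 18.3 and 0 FPKM, and in the ileum 13.1, 102, 15.7 and 31.3 against 26.7, 36.4 and 48.2. The libraries at 0 were deficient 1 in the duodenum and treated 3xD5734 and deficient minusD5718 in the colon. Their counts allow up to 0.341, 0.624 and 0.675 FPKM (3 reads each, counting error only). Reads given to an identical copy are not covered by this bound. The standard errors of its differences, 1.29, 0.63 and 1.59, were above or near the differences of 1.55, -0.32 and 0.95. Its coding sequence is identical to that of Hist1h2ao. That copy is not among the 61 Hist symbols with values, so its reads cannot be looked up.

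**Figure D4:**
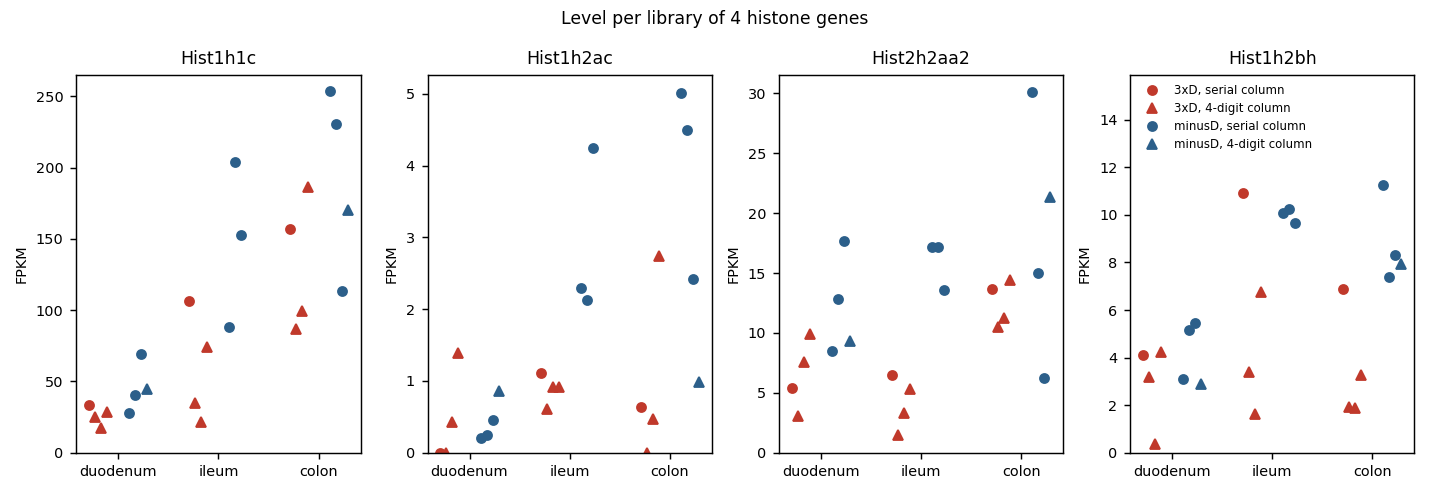
FPKM of Hist1h1c, Hist1h2ac, Hist2h2aa2 and Hist1h2bh in every library of each region, red for 3xD and blue for minusD, circles for serial and triangles for 4-digit columns. The ileum libraries of Hist2h2aa2 separate at 1.46 to 6.53 against 13.6 to 17.1 FPKM, and the colon libraries of Hist1h2bh at 1.86 to 6.87 against 7.4 to 11.2 FPKM.

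Of the 16 genes of the core histone H2B, 4 were tested in the duodenum, 7 in the ileum and 7 in the colon, with medians of -0.39, -0.08 and -0.16. Hist1h2bc, known for a polyadenylated transcript, was at 162, 156, 72.2 and 207 FPKM in treated and 130, 164, 176 and 261 in deficient duodenum. In the ileum it was at 361, 342, 112 and 333 against 215, 241 and 399, and in the colon at 385, 264, 177 and 314 against 268, 289, 278 and 398. Treated 3xD5720 was the lowest library in every region. The differences were -0.34 ± 0.33, -0.08 ± 0.43 and -0.15 ± 0.24 (limma adjusted p = 0.704, 0.953 and 0.944). Without treated 3xD5720 the ileum value was 0.33 and the colon value 0.06, so neither direction stood without that library.

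Hist1h2bh had the smallest p of the members in the colon. It was at 6.87, 1.9, 1.86 and 3.26 FPKM in treated and 11.2, 7.4, 8.33 and 7.93 in deficient libraries, from 61, 10, 9 and 20 and from 108, 72, 85 and 45 reads. The groups did not overlap, and the difference was -1.24 ± 0.31 (limma adjusted p = 0.678). The serial columns alone gave -0.32 and the 4-digit columns alone -1.44. In the ileum it stood at 10.9, 3.4, 1.64 and 6.74 against 10.1, 10.2 and 9.67 FPKM, so the serial treated library was as high as the deficient ones and the difference within the serial columns was 0.12. Hist1h2bg in the colon ranged from 0.504 to 3.77 FPKM in treated and 2.36 to 7.23 in deficient libraries (-0.93 ± 0.41, limma adjusted p = 0.846). Hist2h2be, whose long model ends in a poly(A) signal, was the steadiest of the H2B genes named here. In the colon it was 5.29 ± 0.315 in treated and 4.93 ± 0.146 FPKM in deficient libraries (SD, n = 4 each), and its differences were -0.32, -0.12 and 0.08 in the 3 regions.

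Groups that do not overlap were few. Among tested members, 3 of 22 were separately lower in treated ileum (Hist2h2aa2, Hist1h2ac and Hist1h4h), where the share among all genes was 3.21% lower and 3.35% higher. In the colon 1 of 30 was lower (Hist1h2bh) against 2.32% lower and 2.22% higher. In the duodenum there were 0 of 20, against 2.38% lower and 1.99% higher. Under the filter, Hist1h2bb and Hist3h2ba in the duodenum and Hist1h1d in the ileum were also separately lower, at low counts. In the duodenum Hist1h2bb was at 0.0368 FPKM in treated and 0.355 in deficient libraries on average, and Hist3h2ba at 0.68 and 1.15. The share among all genes under the filter was not counted. No member was separately higher in a treated group.

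The genes of the core histone H3 were low. Only 2 of 10 were tested in the duodenum, 3 in the ileum and 4 in the colon, with medians of 0.06, -0.37 and -0.49. Summed over all 10, they held 6.22 ± 3.29 against 5.14 ± 1.72 FPKM in the duodenum (SD, n = 4 each) and 6.89 ± 2.45 against 10.1 ± 3.16 in the colon, with overlapping groups. Hist1h3a, Hist1h3c and Hist1h3d in the colon were at -0.57, -0.53 and -0.45. Hist2h3c1 was at 0 in some libraries of both groups in every region. Its duodenum values were 1.93, 0, 0 and 3.32 FPKM in treated and 1.92, 0, 1.75 and 0 in deficient libraries. Ileum libraries held 5.13, 0, 0 and 3.31 against 3.81, 3.26 and 0 FPKM, and colon libraries 0, 4.1, 0 and 3.51 against 0, 4.43, 2.11 and 0. A 0 there allows up to 0.217 to 0.431 FPKM in different libraries (3 reads, counting error only). Libraries above 0 held 21 to 82 reads of this gene. Reads given to another gene are not covered by this bound. The gene overlaps Hist2h2aa1 on the same strand.

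Of the 12 genes of the core histone H4, 5 were tested in the duodenum, 3 in the ileum and 6 in the colon, with medians of 0.02, -0.60 and -0.56. In the ileum 3 of 3 and in the colon 6 of 6 were below 0, in the duodenum 2 of 5. Hist1h4h in the ileum was at 3.08, 1.47, 1.97 and 2.25 FPKM in treated and 3.15, 4.15 and 4.03 in deficient libraries. The serial treated library lay just under the lowest deficient one, and the difference was -0.60 ± 0.19 (limma adjusted p = 0.706), with -0.22 within the serial columns. Hist1h4i was at 12.7, 13.6, 9.1 and 10.9 against 11.9, 16.2 and 35.6 FPKM in the ileum and at 15.9, 7.84, 8.19 and 9.29 against 13, 12.2, 19.6 and 16.2 in the colon. Its differences were 0.02, -0.69 and -0.55. Hist1h4c in the colon was at 2.28, 1.05, 0.759 and 0.598 against 1.53, 3.58, 2.34 and 1.94 FPKM (-0.65 ± 0.26, limma adjusted p = 0.846). In the colon, 4 of 6 H4 genes were below 0 among serial columns and 4 of 6 among 4-digit columns, with medians of -0.06 and -0.50.

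The sums by type showed the same overlap. In the colon the H4 genes summed to 28.8 ± 9.44 FPKM in treated and 44.3 ± 4.96 in deficient libraries (SD, n = 4 each), with treated 1 at 42.7 inside the deficient range of 38.9 to 49.4. In the ileum the H1 genes summed to 60.4 ± 39.0 (SD, n = 4) and 151 ± 58.3 FPKM (SD, n = 3), from 22.5 to 108 and from 89.7 to 206. H2A sums were higher in treated colon, 120 ± 67.4 against 85.9 ± 17.3 FPKM, and without Hist1h2ap they were 64.5 ± 3.07 against 73.7 ± 12.4. Summed over the 55 members other than Hist1h2bc, Hist1h1c and Hist1h2ap, treated libraries held 76.3 to 99.7 FPKM against 103 to 174 in the ileum and 109 to 141 against 143 to 193 in the colon. In the duodenum these sums overlapped, at 62.3 to 105 and 58.7 to 112 FPKM. These 3 genes were left out after their values were seen, so the separation is a description. Within the colon's serial columns the sum was 141 in the treated library and 172 on average in the deficient ones, and within the 4-digit columns 119 on average and 143.

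**Figure D5:**
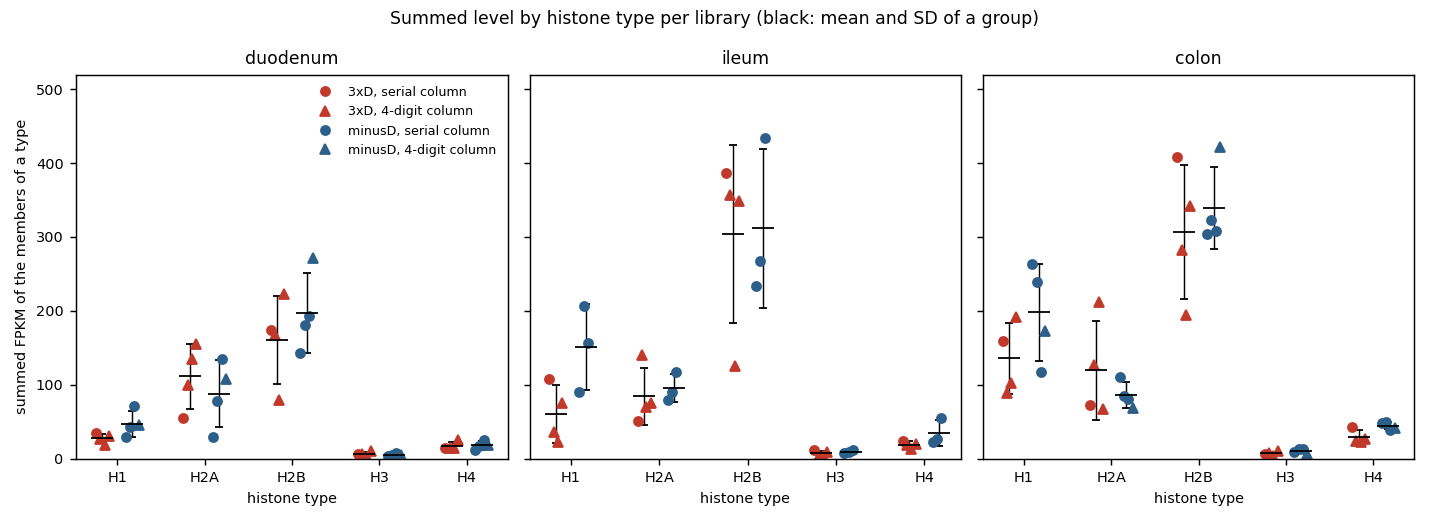
Summed FPKM of the members of each histone type in every library, by region, red for 3xD and blue for minusD, circles for serial and triangles for 4-digit columns; black marks are the group mean and SD. The groups of a type overlap in every panel, H4 of the colon through treated 1 at 42.7 FPKM.

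The difference in response between regions was tested as an interaction over 13235 genes and 31 members. No member passed, and the share among all genes was 0% between duodenum and ileum, 0% between duodenum and colon and 0% between ileum and colon. At an unadjusted limma p under 0.05 there were 0, 2 and 1 members, against 599, 259 and 446 genes. The response of Hist2h2aa2 in the ileum minus that in the colon was -1.50 ± 0.57 (limma adjusted p = 0.97). Hist1h2ac and Hist2h2be differed between duodenum and colon by 1.10 and -0.40, Hist1h2bg by 1.17 between duodenum and colon and 1.05 between ileum and colon, and Hist1h2br by -0.40 between ileum and colon. Hist3h2ba, Hist1h2ah and Hist1h2ac differed between duodenum and ileum by -0.82, 1.04 and 0.95, with limma adjusted p = 0.863 for each. The 3 comparisons share the libraries of each region.

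Column type itself was tested with treatment as a covariate. No member passed: 0 of 20 in the duodenum, where 0.256% of genes did (30 of 11734), and 0 of 30 in the colon, where 0.149% did (19 of 12746). With an unadjusted p under 0.05, 0 members were lower and 1 higher in the 4-digit duodenum libraries, against 3.22% and 4.50% of genes. In the colon 4 were lower and 0 higher, against 10.9% and 15.7%. The 4 were Hist1h4j, Hist1h2ai, Hist1h2ag and Hist1h2bh, at -0.97 ± 0.19, -1.29 ± 0.34, -0.74 ± 0.23 and -0.70 ± 0.28, and the adjusted p of the first was 0.0786 by limma. Hist1h4j was at 0.549, 0.597, 0.94 and 0.254 FPKM in the 4-digit and 1.79, 1.8, 2.52 and 1.56 in the serial colon libraries, so the column types did not overlap. In the duodenum the smallest p belonged to Hist1h2af (0.59 ± 0.24), Hist1h2ab (0.61 ± 0.27) and Hist1h2bk (-0.62 ± 0.36). Leaving out colon deficient minusD5718, after which every 4-digit colon library is a treated one, moved the calls of column type from 19 to 2435 genes, and Hist1h2bh was then called (-1.26, limma adjusted p = 0.0325).

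Other genes of histone supply were given from lists and did not pass the test in any region. Of the listed variants outside the 4 Hist clusters, called replication-independent here, 11 of 12 were tested in each region. They include H2afx, which carries the stem-loop pattern. All 11 were above 0 in the duodenum, 4 of 11 in the ileum and 7 of 11 in the colon, with medians of 0.20, -0.15 and 0.04. H3f3a, a gene of histone H3.3, was at 737 ± 47.9 FPKM in treated and 602 ± 75.2 in deficient colon (SD, n = 4 each), a difference of 0.30 ± 0.13 (limma adjusted p = 0.852). In the ileum it was at 0.31 ± 0.20. H1fx, a linker histone variant, was at -0.48 ± 0.17 in the ileum (limma adjusted p = 0.706). H3f3b, the other H3.3 gene, was at 0.23 ± 0.12 in the duodenum and 0.18 ± 0.13 in the colon, and H2afy2, a macroH2A gene, at 0.16 ± 0.11 in the duodenum.

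Of the genes of histone messenger processing and transcription, 15 of 16 were tested in each region, with medians of -0.02, 0.08 and -0.10. Sympk, a scaffold of the cleavage complex, was at 18.1 ± 0.497 FPKM in treated and 21.8 ± 1.27 in deficient colon (SD, n = 4 each; -0.25 ± 0.09, limma adjusted p = 0.846), and Hinfp, a factor of H4 gene promoters, at -0.41 ± 0.17. In the ileum Npat, a coactivator of histone genes, was at 0.36 ± 0.16 and Sympk at -0.31 ± 0.15. In the duodenum Lsm10, of the U7 particle, was at 0.21 ± 0.13 and Cpsf1 at -0.46 ± 0.28. Slbp, which binds the stem-loop, was at 29.2 ± 2.52 FPKM in treated and 28 ± 1.54 FPKM in deficient duodenum (SD, n = 4 each). The 12 histone chaperones had medians of 0.05, -0.08 and -0.08. Chaf1a, a subunit of the CAF-1 chaperone, was at -0.43 ± 0.14 in the ileum (limma adjusted p = 0.706). Asf1a was at 0.40 in the ileum and 0.14 in the colon, Chaf1b at 0.25 and Hirip3 at -0.21 in the duodenum, and Hira at -0.13 in the colon.

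The 23 S-phase and proliferation genes, called S-phase genes for short, mark dividing cells. Some of them, such as Ccnb1 and Plk1, belong to later phases of the cycle. The medians of the 23 were 0.07, 0.06 and -0.13. In the colon, 19 of 23 were below 0. Within the serial columns the colon median was -0.27 and within the 4-digit columns 0.35. Rrm2, a ribonucleotide reductase subunit, had the smallest p in the duodenum (0.94 ± 0.39, limma adjusted p = 0.526). Mcm7, a helicase subunit, was at -0.37 in the duodenum and -0.34 in the colon, Mcm3 at -0.24 and Ccnb1 at 0.44 in the ileum, and Plk1 at -0.23 in the colon. The median deviation of the S-phase genes was highest in colon deficient 3, at 0.93, where that of the histone genes was 0.35. In colon deficient 1 and 2 the histone genes were at 0.37 and 0.34 and the S-phase genes at -0.14 and -0.13. In the duodenum deficient 3 was the highest library in both sets, at 0.48 for the histone genes and 0.24 for the S-phase genes. In the ileum it was the highest for the histone genes (0.58) and second for the S-phase genes (0.24), after treated 3xD5720 at 0.34.

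Of 117 listed small RNA genes without a poly(A) tail, 5 passed the filter in the duodenum, 3 in the ileum and 6 in the colon. Their medians were -0.09, 0.08 and -0.39. Snord17, a small nucleolar RNA, was listed at 0 in every treated duodenum library and at 1.75 ± 0.639 FPKM in the deficient ones (SD, n = 4 each; limma adjusted p = 0.0822). It was at -0.22 in the ileum and -0.73 in the colon. Rpph1 was at 0.82 in the duodenum, Rmrp at 0.62 in the ileum and Snora74a at -1.11 in the colon. The part of carry-over of RNA without a poly(A) tail in the histone values was not tested.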

How the data were processed

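Poly(A) RNA was sequenced per the labels' protocols. The authors deposited FPKM per gene symbol, 1 column per library. Mapping used CLC Genomics Workbench according to the labels' protocols, while kallisto 0.45.0, DESeq 1.14.0, DESeq2 and the build mm9 (NCBIM37) stand in the submitters' processing notes without a role. All 171528 values of the 8-column ileum table equal the duodenum table, so the ileum's 7-column table was used. Columns named Vehicle were taken as minusD.

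Whole reads were recovered for 14971 of 17938 genes above 0 in at least 3 libraries (83.5%, within 1e-04 of a whole number), jointly over 23 libraries. Near-identical copies may still share reads. No 2 libraries of a group were alike within sampling noise (lowest chi-square per gene 97.3).

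Tests were two-sided: limma 3.58.1 in R 4.3.3 (lmFit, eBayes with trend) on log2(FPKM + 1), genes reaching 1 FPKM in 3 or more libraries, Benjamini-Hochberg over all genes, threshold 0.05. Interactions used 1 fit of 6 group means. Fits and read recovery were tested on simulated data. Column numbers are not tied to the labels' replicates. Same-numbered libraries deviated together (correlation over 0.1) in 7 of 7 pairs of duodenum and ileum, 7 of 8 of duodenum and colon and 6 of 7 of ileum and colon, so a block by number was an alternative, beside other pseudocounts, filters, scalings, voom on the reads, a column-type term and leaving out each library. The members and lists were chosen with earlier results of these data known. Named were members with a mean of at least 5 FPKM in a region, the 3 smallest p of each contrast, members with separate groups and passing the filter, and a few fixed names, and of each list (variants, processing, chaperones, S-phase genes, RNA genes without a tail) members past the threshold or the 2 smallest p. Slbp was added after its values were seen, as were the separate members under the filter.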

Additional observations from a re-analysis of the deposited data

Results flagged for a closer look

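For members named by level, treatment p, separate groups or as fixed names, and passing the filter, 53 groups of 4 libraries were examined. In 3 groups, 1 library's gap to the nearest other took up more of the range than Dixon's 95% critical value for 4 samples allows. Chance gives about 1 in 20. Hist1h2bc in ileum treated 3xD5720 was at 112 FPKM, against 333 to 361 in the other treated libraries. Hist1h2bc in colon deficient minusD5718 was at 398 FPKM, against 268 to 289 in the other deficient libraries. Hist1h4i in duodenum treated 3xD5734 was at 12.3 FPKM, against 6.5 to 7.43.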

How the results depend on the processing

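The count of histone genes called for treatment stayed at 0 in each region, and that for the difference in response between regions at 0, under every alternative tried for it, including a replicate block by column number (0 members called in each of the 3 comparisons, correlation 0.30). The count for column type in the colon ranged from 0 to 1 when libraries were left out, and in the duodenum it stayed at 0. The median difference of the members tested over the alternatives lay between -0.23 and 0.04 (duodenum), -0.51 and -0.15 (ileum), and -0.45 and -0.17 (colon). Of 873 alternative values of 47 single-gene results, 16 changed direction, none of them past the threshold. With column type as a term, Hist1h4i in the duodenum was -0.05, and in the ileum Hist1h2bc was 0.39 and Hist1h2bh 0.12. In the 7-library tables Hist1h4i in the duodenum was -0.01 and Hist1h2ap in the colon -0.07. Leaving out 1 library at a time, Hist1h4i in the duodenum ranged from -0.19 to 0.28, Hist3h2a in the duodenum from -0.23 to 0.03, Hist1h2ap in the ileum from -0.91 to 0.04, Hist1h2bc in the ileum from -0.25 to 0.33, and in the colon Hist1h2ap from -0.12 to 2.29 and Hist1h2bc from -0.31 to 0.06. The cause was not tested. Low counts limit most members: in each region the median member had under 6 reads per library. Levels cannot be compared between regions, whose tables were normalized separately.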
